A study of Plutella xylostella with 6 samples.

Results

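Storage proteins and hexamerins are the genes described here, as they stood in RNA from whole bodies of P. xylostella larvae with and without the volatile homoterpene DMNT. The rule took every gene whose deposited description holds the words juvenile hormone-suppressible, arylphorin, hexamerin or methionine-rich storage, and it found 14 of the 21946 genes and loci in the table. Of these, 9 are storage protein genes (4 arylphorin subunits and 5 juvenile hormone-suppressible proteins). The other 5 are fibrohexamerin-like genes, which match only through the letters hexamerin inside their name, and are given apart. No description holds the words methionine-rich storage.

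The control group and the DMNT group had 3 libraries each, the second from larvae exposed for 12 hr, and all larvae were second instars of a purchased laboratory stock raised on commercial forage. Neither group carried a genetic change. In the feeding bioassays of the study the control received the solvent, paraffin oil, and the labels of these libraries name no solvent. How many larvae went into a library is not stated, so the tests rest on the spread between these samples alone, which may be technical. The study used the libraries to ask which genes respond early to DMNT, a plant volatile that kills this pest.

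In Lepidoptera, storage proteins are made mainly by the larval fat body, secreted into the haemolymph, and taken up again before pupation as a reserve of amino acids for building the adult. They form hexamers and belong to the same superfamily as the copper-bearing haemocyanins and phenoloxidases. Arylphorins are the members rich in the aromatic amino acids phenylalanine and tyrosine, which are used in tanning the new cuticle. The juvenile hormone-suppressible proteins were named in the cabbage looper Trichoplusia ni, where juvenile hormone lowers their mRNA. In the tobacco hornworm Manduca sexta, arylphorin mRNA is abundant while a larva feeds and drops while it moults. Fibrohexamerin is the silk glycoprotein that joins the fibroin chains in the silkworm Bombyx mori, and is no storage protein.

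Control libraries held 49553028 to 56381123 counts and DMNT libraries 39853422 to 54671573, with DMNT replicate 3 the shallowest. Of the markers fixed for tissues of the body, 158 of 172 midgut genes and 13 of 13 muscle genes had a count in some library. So had 102 of 104 cuticle protein genes and 20 of 20 genes of the fat body list. Of all 21946 genes and loci, 21559 had one too, so these shares do not tell tissue content. The 17709 genes whose FPKM averaged 0.5 or more were tested, and calls follow the study's thresholds, a 2-fold change or more and an unadjusted p below 0.05. Of these genes 65 (0.367%) were higher and 89 (0.503%) lower after DMNT, 154 (0.87%) in all. With p adjusted by Benjamini-Hochberg, edgeR's quasi-likelihood test called 2 genes (0.0113%), and neither was a member. FPKM, which accounts for gene length, is used below to compare genes with each other. CPM, a gene's count relative to the TMM-scaled size of its library, is used to compare libraries.

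The storage protein genes spanned over 3 orders of magnitude in level. Both arylphorin subunit beta-like genes, LOC105388114 and LOC105388112, stood far above the rest, with a median of 1083 and 838 FPKM in the control libraries. RefSeq lists them as PxAry2 and PxAry1. Next came the arylphorin subunit alpha-like gene LOC105388113 at 8.98 FPKM. The juvenile hormone-suppressible genes were low, at 1.37 FPKM for basic protein 1-like (LOC105381553), 0.84 for acidic protein 1-like (LOC105388111), 0.53 for basic protein 2-like LOC105388120 and 0.37 for basic protein 2-like LOC105388119, listed in RefSeq as PxSP1. The order of these 4 is not settled, because their control libraries overlapped with each other. A further alpha-like gene, LOC105388116, stood at 0.17 FPKM, and a further basic protein 2-like gene, LOC105388121, had no count in any control library.

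**Figure D1:**
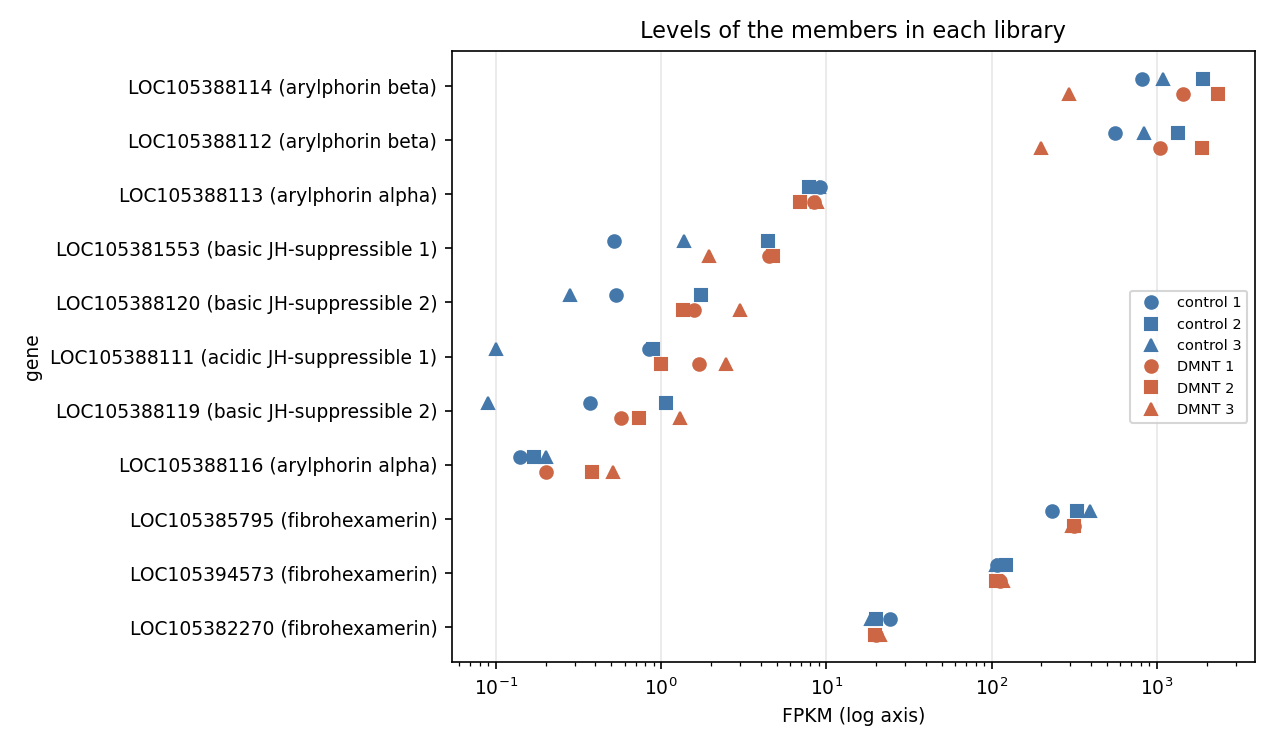
Each point is the FPKM of 1 gene in 1 library, on a log axis, for the 11 members with a mean above 0.1 FPKM, with control libraries in blue and DMNT libraries in orange. Both arylphorin beta genes lie between 199 and 2353 FPKM, and the juvenile hormone-suppressible genes all lie under 5 FPKM.

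The beta pair made up nearly all storage protein RNA. It took 96.3% (95% Wilson interval 96.1 to 96.4%) of the counts of the 9 storage genes in DMNT replicate 3 and 99.2 to 99.6% in the other libraries. The 9 genes together took 0.119% of all counts in DMNT replicate 3 (95% Wilson interval 0.118 to 0.120%) and 0.983% in DMNT replicate 2 (0.980 to 0.985%), the lowest and the highest of the 6. These intervals cover counting error only. Ranked by FPKM among all genes, LOC105388114 held rank 84 in DMNT replicate 2 and rank 343 in DMNT replicate 3. In bulk RNA, fewer fat body cells and less of this RNA in each cell cannot be told apart.

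The arylphorin beta genes varied widely among libraries of the same treatment. LOC105388114 stood at 1877, 4139 and 2629 CPM in control replicates 1 to 3 and at 3416, 5491 and 714 CPM in DMNT replicates 1 to 3. Both the highest and the lowest library were DMNT libraries, and all 3 control libraries fell between them. LOC105388112 stood at 1265, 2886 and 2007 CPM in the control and at 2452, 4290 and 478 CPM after DMNT, in the same order of libraries. Among the DMNT libraries alone, the highest was 7.69 times the lowest for LOC105388114 and 8.98 times for LOC105388112, against 2.21 and 2.28 times among the controls.

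No difference between the groups was detectable for these genes against that spread. The means of LOC105388114 were 2882 ± 1152 CPM in the control and 3207 ± 2395 CPM after DMNT (SD, n = 3 each), which gave a log2 fold change of 0.15 (95% interval -1.27 to 1.58). For LOC105388112 they were 2053 ± 812 and 2407 ± 1907 CPM (SD, n = 3 each), which gave a log2 fold change of 0.23 (95% interval -1.27 to 1.73). The intervals reach from 0.415-fold to 2.98-fold and from 0.414-fold to 3.32-fold, so differences up to that size either way remain compatible with these data. The sign rested on single libraries. It was negative without DMNT replicate 2 (-0.48 and -0.49) and without control replicate 1 (-0.08 and -0.02), and reached 0.63 and 0.72 without DMNT replicate 3. With the replicate number as a block it was negative as well (-0.16 and -0.12).

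The beta genes kept a near-constant ratio while their level moved. The FPKM of LOC105388112 was 0.683, 0.707 and 0.774 of that of LOC105388114 in control replicates 1 to 3, and 0.728, 0.792 and 0.678 in DMNT replicates 1 to 3. The ratio thus stayed within 0.678 to 0.792 while the pair summed ran from 1191 to 9781 CPM. Both genes carry the same description, lie next to each other, and may share reads, so the ratio need not be that of separate transcripts. Counts added up over both and fitted as a single gene had a log2 fold change of 0.19 (95% interval -1.27 to 1.64).

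The alpha-like neighbour of the beta genes did not share this spread. LOC105388113 stood at 20.3, 16.6 and 21.2 CPM in the control and at 19.4, 15.6 and 20.7 CPM after DMNT. The groups overlapped almost wholly, and its lowest libraries, control replicate 2 and DMNT replicate 2, were the highest ones of the beta pair. Its log2 fold change was -0.06 (95% interval -0.48 to 0.36). Measured as the SD of log2(CPM + 0.5) within groups, it ranked at percentile 30.2 of the 17709 genes tested, whereas the beta genes ranked at percentiles 99.1 and 99.3.

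**Figure D2:**
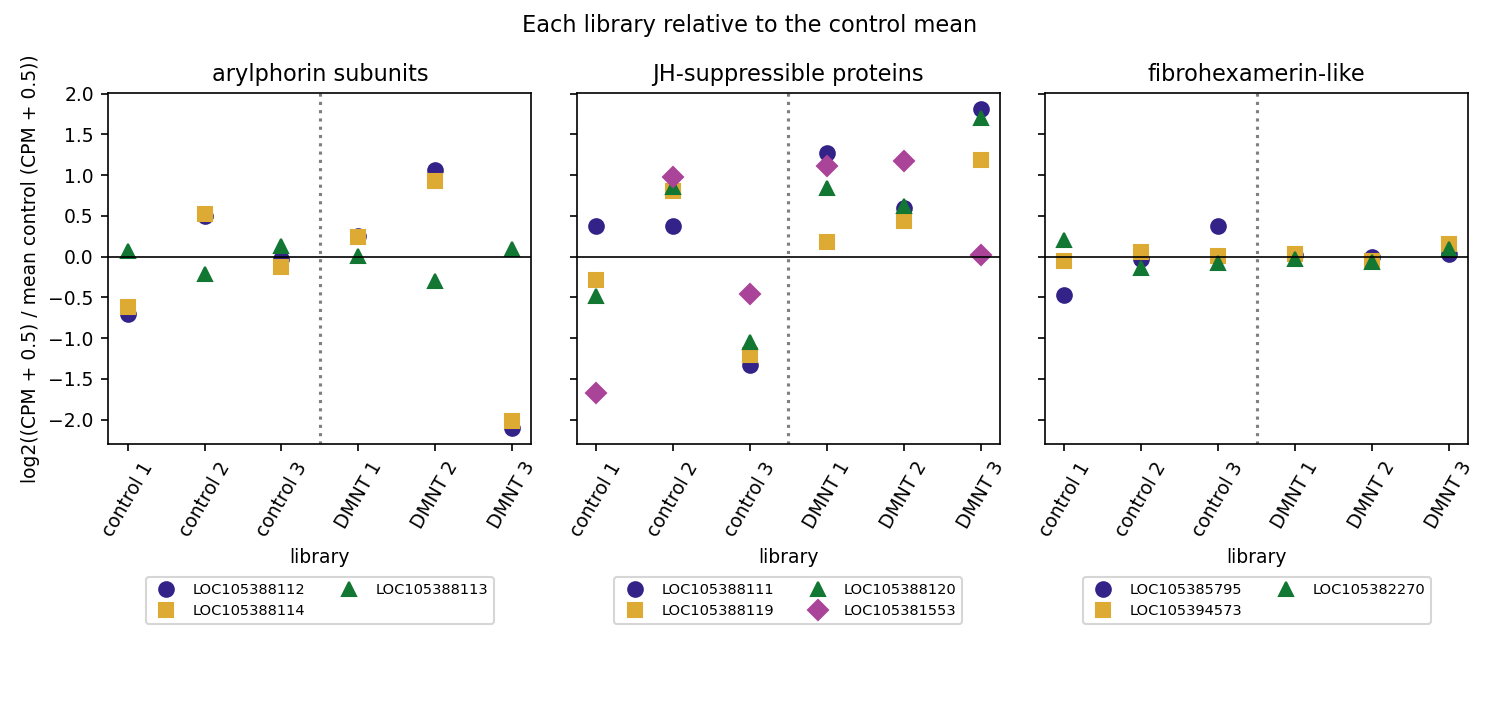
Each point is 1 gene in 1 library, as the log2 of its CPM + 0.5 over the mean of CPM + 0.5 in the control libraries, with arylphorin subunits on the left, juvenile hormone-suppressible (JH-suppressible) proteins in the middle and fibrohexamerin-like genes on the right. In DMNT replicate 3 the arylphorin beta genes lie at -2.01 and -2.10 while LOC105388111, LOC105388120 and LOC105388119 lie at 1.81, 1.70 and 1.18.

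Of the juvenile hormone-suppressible genes, the acidic protein passed the study's thresholds and was higher after DMNT. LOC105388111 stood at 2.09, 2.10 and 0.29 CPM in the control and at 4.32, 2.50 and 6.47 CPM after DMNT, from 15 to 248 counts. Every DMNT library lay above every control library, with DMNT replicate 2 the nearest to the controls, as held with DMNT above for 4.25% of all genes tested (8.37% without overlap in either direction). Its means were 1.49 ± 1.04 and 4.43 ± 1.98 CPM (SD, n = 3 each). The log2 fold change was 1.56 with a standard error of 0.65 (95% interval 0.06 to 3.06, unadjusted p = 0.0433, Benjamini-Hochberg adjusted p = 0.9999 by edgeR's quasi-likelihood test). The call was lost without DMNT replicate 1, where the value was 1.58, and without DMNT replicate 3, where it was 1.18. It was also lost with the replicate number as a block (1.69, where 0.435% of all genes were higher), with robust estimation of the spread, and with limma on log2(FPKM + 1), where the value was 0.76.

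Both basic protein 2-like genes that were tested were lowest in control replicate 3 and highest in DMNT replicate 3, as the acidic one was. The order of the libraries in between differed from that of the acidic one. LOC105388120 stood at 1.33, 4.12 and 0.74 CPM in the control and at 4.08, 3.44 and 7.85 CPM after DMNT. Control replicate 2 lay above DMNT replicates 1 and 2, so the groups overlapped. Its log2 fold change of 1.31 (standard error 0.61, 95% interval -0.10 to 2.71) missed the threshold by edgeR's quasi-likelihood test (unadjusted p = 0.0641, Benjamini-Hochberg adjusted p = 0.9999). It passed with DESeq2, where 0.401% of all genes were higher, and with edgeR's exact test, where 0.525% were. LOC105388119 stood at 0.89, 2.46 and 0.23 CPM in the control and at 1.42, 1.79 and 3.34 CPM after DMNT, with control replicate 2 second only to DMNT replicate 3. Its log2 fold change was 0.86 (95% interval -0.80 to 2.53). The third basic protein 2-like gene, LOC105388121, had 8 counts in DMNT replicate 3 and 0 in the other 5 libraries. In those 5, 3 counts, an approximate 95% upper limit for a count of 0, come to 0.0523 to 0.0644 CPM.

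Basic protein 1-like (LOC105381553) had another order of libraries. It stood at 1.41, 11.5 and 3.95 CPM in the control and at 12.7, 13.3 and 5.68 CPM after DMNT. The groups overlapped through control replicate 2, and DMNT replicate 3, the highest library of the acidic protein and of both basic 2-like genes, was the lowest DMNT library here. Its log2 fold change was 0.91 (95% interval -0.62 to 2.45), and it did not pass.

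The count of juvenile hormone-suppressible genes called changed with which library was left out. With all libraries 1 of the 4 tested was higher and 0 were lower, where 0.367% of all genes were higher. Without control replicate 2 all 4 were higher, with log2 fold changes of 1.97 for LOC105381553, 1.88 for LOC105388111, 1.94 for LOC105388119 and 2.30 for LOC105388120, where 0.706% of all genes were higher. Without DMNT replicate 1 or DMNT replicate 3 it was 0. The median of the 4 was 1.11 with all libraries, against -0.0032 over all genes tested, and all 4 lay above 0, as did 49.4% of all genes. LOC105388111, LOC105388119 and LOC105388120 varied together over the libraries (Pearson correlations of 0.85 to 0.96), so their signs are not separate evidence. Summed over all 5 genes, the level was 5.72, 20.2 and 5.22 CPM in control replicates 1 to 3 and 22.5, 21.0 and 23.5 CPM in DMNT replicates 1 to 3. Control replicate 2 thus lay close under the DMNT libraries, and LOC105381553 supplied 11.5 CPM of its sum. Without LOC105381553 the sums were 4.31, 8.67 and 1.27 CPM in the control and 9.81, 7.73 and 17.9 CPM after DMNT, with control replicate 2 above DMNT replicate 2.

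The low alpha-like gene LOC105388116 did not reach the mean of 0.5 FPKM and was not among the genes tested. It had 30, 32 and 42 counts in the control and 37, 79 and 77 after DMNT, or 0.52, 0.60 and 0.82 CPM and 0.79, 1.44 and 2.01 CPM. DMNT replicate 1 lay within the control range, and the other DMNT libraries lay above it. With genes kept from a mean of 0.1 FPKM, a filter listed as an alternative, it had a log2 fold change of 1.12 with a standard error of 0.43 (unadjusted p = 0.0317, Benjamini-Hochberg adjusted p = 0.9999 by edgeR's quasi-likelihood test), where 0.422% of the 20152 genes tested were higher. The call was lost when control replicate 1 (0.99), DMNT replicate 2 (1.11), control replicate 2 (1.07) or DMNT replicate 3 (0.79) was left out.

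**Figure D3:**
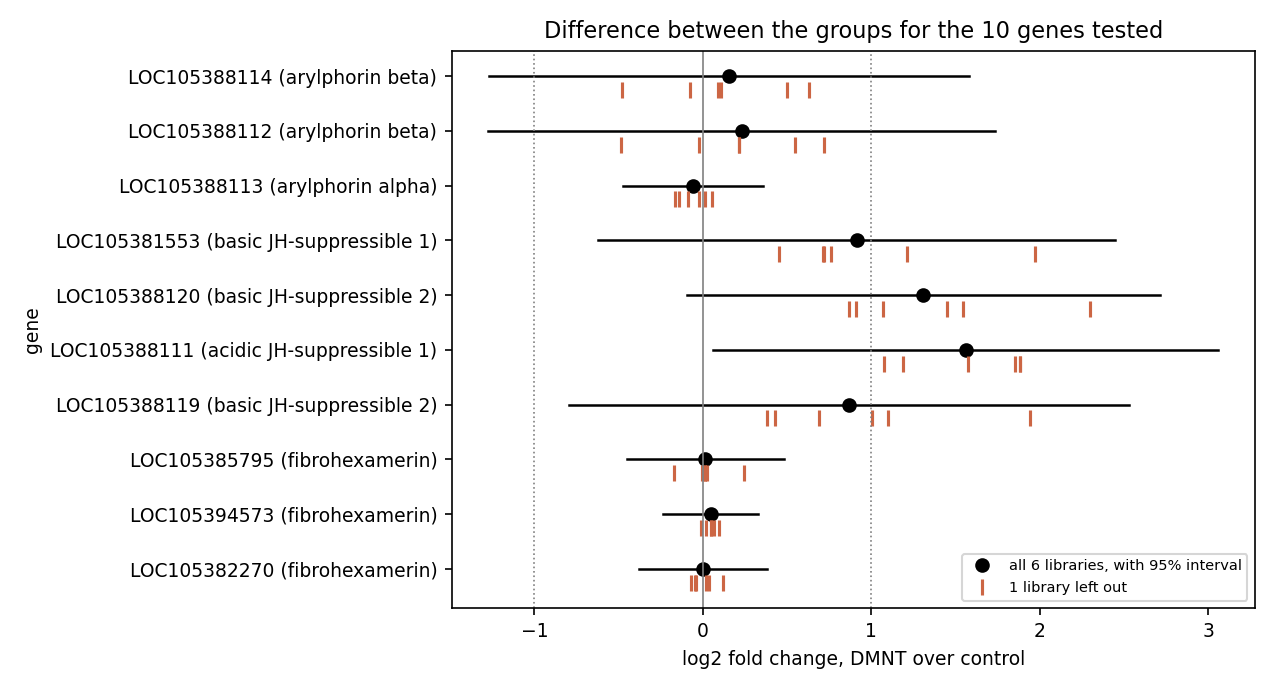
Black points are the log2 fold change of DMNT over control for the 10 members tested, with 95% intervals as lines, and orange ticks are the same with 1 library left out, while dotted lines mark a log2 fold change of 1 in size. LOC105388111 at 1.56 is the only gene whose interval lies above 0, and the alpha-like LOC105388113 and the fibrohexamerin-like genes lie within 0.06 of 0.

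Over all members, 10 of 14 passed the filter and 1 was called, LOC105388111. Across all genes tested 0.367% were higher, and the call was lost without DMNT replicate 1 or 3 and with the block. Of the 7 storage genes tested, 6 had a log2 fold change above 0 and 1 below it, against 49.4% above 0 over all genes. These signs are not separate evidence. Both beta genes varied together (Pearson correlation 0.998), may share reads, and were below 0 with the block. LOC105388111, LOC105388119 and LOC105388120 also varied together (0.85 to 0.96). The median of the 7 was 0.86, against -0.0032 over all genes tested. That median was 1.88 without control replicate 2, 0.45 without control replicate 1 and 0.38 without control replicate 3, so it rested on single control libraries. Passing the filter depends on level alone, so this leaves out LOC105388116 and LOC105388121. Apart from LOC105388113, the storage genes tested ranked at percentiles 97.6 to 99.3 of all genes for their spread within groups. The low genes among them carry more counting error, with as few as 12 counts in a library against at least 18311 for each beta gene.

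The 3 tested fibrohexamerin-like genes had group means close to each other. LOC105385795 stood at 179, 243 and 320 CPM in the control and 251, 246 and 252 CPM after DMNT, so that the DMNT libraries lay inside a wide control range, and its spread within groups ranked at percentile 59.4 of the genes tested. LOC105394573 stood at 85.4, 92.1 and 89.2 CPM in the control and 91.2, 85.3 and 98.7 CPM after DMNT. LOC105382270 stood at 14.4 to 18.4 CPM over all libraries. Their log2 fold changes were 0.02 (95% interval -0.45 to 0.48), 0.05 (-0.24 to 0.33) and 0.0020 (-0.38 to 0.38), which leaves room for changes of at most 1.40-fold up. LOC105392108 had 3 and 4 counts in DMNT replicates 1 and 2 and 0 elsewhere, and LOC105385819 had 0 in all 6 libraries. The silk genes named as fibroins and sericins, 6 in all, gave 0 calls, where 0.87% of all genes tested were called.

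Position and annotation tie most storage genes together. In a newer RefSeq assembly of the species (ilPluXylo3.1), 8 of the 9 lie on a single chromosome with at most 6 other genes between neighbours, and LOC105381553 lies on another. LOC105388113, LOC105388114 and LOC105388112 follow each other directly there, and so do LOC105388121, LOC105388120 and LOC105388119. The gene of troponin C, a muscle protein, was assembled between both alpha-like genes, and stood at 294, 241 and 446 CPM in the control and 318, 318 and 376 CPM after DMNT (log2 fold change 0.04). Of 13 loci with a running number next to a member, 11 were tested and 0 were called, where 0.87% of all genes tested were. Their log2 fold changes were -0.13 to 0.34. The deposited annotation gives 5 of the 9 storage genes the entry of tyrosinase, an enzyme, although storage proteins are not known as enzymes.

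Among genes fixed as fat body and haemolymph carriers, the apolipophorins carry lipid in the haemolymph. Their sum had the same order of libraries as the beta pair from highest to lowest, and the rest of the list did not. The 4 apolipophorins of the list summed to 446, 1301 and 554 CPM in control replicates 1 to 3 and 978, 1544 and 436 CPM in DMNT replicates 1 to 3. As with the beta pair, DMNT replicate 2 was highest and control replicate 2 next. DMNT replicate 3 was lowest, but almost level with control replicate 1, where the beta pair stood at 1191 against 3142 CPM. Most of the apolipophorin sum came from the apolipophorins-like gene LOC105380513, which ran at 254, 738 and 300 CPM in the control and 612, 872 and 256 CPM after DMNT. LOC105380513 and LOC105392378 were lowest in control replicate 1, and LOC105395966 and LOC105397454 in DMNT replicate 3. LOC105397454 was highest in control replicate 2. The other 16 genes of the list, among them transferrins, which bind iron, and 2 dehydrogenase regulators matched through the letters transferring, summed to 490, 483 and 554 CPM in the control and 485, 527 and 533 CPM after DMNT. Their sum thus kept within a narrow range with control replicate 2 the lowest library, and the transferrin-like gene LOC105384728 ran at 18.3, 10.8 and 5.51 CPM in the control and 16.9, 8.41 and 12.7 CPM after DMNT, another order. Bilin-binding protein-like (LOC105381847), a carrier of blue pigment, stayed within 240 to 272 CPM. The 16 genes of the list that were tested gave 0 calls, where 0.87% of all genes tested were called, and a median log2 fold change of 0.03. The part of fat body content in the spread of the storage genes was not tested.

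Phenoloxidases, the relatives that oxidise phenols in melanization and tanning, were also lowest in DMNT replicate 3. Both phenoloxidase subunit 2-like genes together stood at 90.7, 141 and 62.3 CPM in the control and at 71.5, 122 and 26.2 CPM after DMNT. Neither LOC105394051 (log2 fold change -0.48, standard error 0.48) nor LOC105386870 (-0.41, standard error 0.53) passed, and their groups overlapped.

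The lists of juvenile hormone, ecdysone and nutrient genes held no called gene, and at the 0.87% called over all genes a list of their size would hold less than 1. Of 35 tested genes of juvenile hormone breakdown, binding and signalling, 0 were higher and 0 lower, 0 had an unadjusted p under 0.05 by edgeR's quasi-likelihood test, and the median log2 fold change was -0.06. The juvenile hormone esterase-like genes LOC105387899 and LOC105387913, named for the enzyme that breaks the hormone down, stood at -0.59 ± 0.32 and 0.39 ± 0.23 (log2 fold change ± standard error). Of 17 tested genes of ecdysone, the moulting hormone, 0 were called and the median was -0.04. Ecdysone 20-monooxygenase (LOC105393180), which makes the active form of the hormone, had 0.42 (standard error 0.20) and ecdysone-induced protein 78C-like (LOC105389672) had 0.45 (standard error 0.23). Of 19 tested genes of insulin and nutrient signalling 0 were called and the median was -0.10, with -0.39 (standard error 0.21) for an lst8-like subunit of the target of rapamycin complex (LOC105382536) and -0.33 (standard error 0.20) for ribosomal protein S6 kinase 2 beta (LOC105386708). In the ecdysone and nutrient lists, too, 0 genes had an unadjusted p under 0.05 by edgeR's quasi-likelihood test, and DESeq2 called 0 genes in each of the 3 lists.

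Described genes outside the members were ranked by how like their pattern over the 6 libraries was to the mean log2(CPM + 0.5) of the 10 tested members. The highest were ADP-ribosylation factor-like protein 6-interacting protein 4 (LOC105389528), U6 snRNA-associated Sm-like protein LSm3 (LOC105398344) and cyclin-G-associated kinase (LOC105383047). With them came general odorant-binding protein 56d-like (LOC105379994) and N-acetylgalactosamine kinase (LOC105393024), all with Pearson correlations of 0.98 to 0.99. They were picked as the highest among the described genes with a mean of at least 5 CPM, over 6 libraries that share depth and preparation, so the values only describe these libraries. The mean also averages members that moved opposite ways. In DMNT replicate 3 the beta genes lay at -2.01 and -2.10 relative to the control mean, and LOC105388111, LOC105388120 and LOC105388119 at 1.81, 1.70 and 1.18. Likeness to the mean is thus not likeness to any storage gene. General odorant-binding protein 56d-like, a carrier of small hydrophobic molecules, stood at 528, 1050 and 507 CPM in the control and 1245, 1301 and 756 CPM after DMNT. Its highest control level was in control replicate 2, as for LOC105381553, LOC105388119 and LOC105388120. LOC105388111 was level in control replicates 1 and 2 (2.09 and 2.10 CPM). DMNT replicate 3 was the lowest DMNT library of the odorant-binding protein and LOC105381553, and the highest of LOC105388111, LOC105388119 and LOC105388120.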

How the data were processed

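Libraries were poly(A)-selected and marked for strand with dUTP. The authors trimmed with cutadapt, mapped with Hisat against NCBI's P. xylostella reference, and used StringTie for assembly and quantification. Their versions, the counting program and whether it used strand are not given in the sources used here. Raw whole numbers make up the deposited counts. The authors scaled the deposited FPKM for exon length and mapped reads. Samples were grouped by their titles, and all 12 value columns matched a sample.

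Genes averaging 0.5 FPKM or more were tested on TMM-scaled counts with edgeR 4.0.16 (glmQLFit, glmQLFTest) in R 4.3.3, with no covariate. The standard error was taken as the absolute log2 fold change over the square root of F. Libraries of every pair differed beyond sampling noise (mean chi-square per gene of at least 51.8). Samples with the same replicate number deviated together only weakly, with correlations of 0.103, 0.102 and 0.195 for numbers 1 to 3. The numbers come from the sample titles, which do not state that equal numbers were paired. Control replicate 2 correlated more with DMNT replicate 1 (0.110) than with its own number. Alternatives were median-ratio and upper-quartile scaling, other filters, DESeq2 1.42.0, edgeR's exact test, robust spread, limma 3.58.1 on log2(FPKM + 0.1) and log2(FPKM + 1), a replicate block, and leaving out each library. The beta pair as a single gene, the alternatives for LOC105388116, the medians of the 7 storage genes under other settings, and the sums without LOC105381553 or without apolipophorins were added after seeing the data.

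The members and lists were chosen with earlier results of these data known, and lists were taken from words in descriptions. All members are named, with the 2 genes of smallest p in each list of phenoloxidase, juvenile hormone, ecdysone and nutrient genes, and for likeness the 5 described genes of highest correlation at a mean of at least 5 CPM, where uncharacterized genes were left out. Genes of the fat body list, troponin C and the odorant-binding protein were given values after these had been seen. RefSeq names and gene order (ilPluXylo3.1) were found for 12 of 14 members by symbol. Its coordinates served only for gene order and chromosome, as it is not known to be the authors' build.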

Additional observations from a re-analysis of the deposited data

How the results depend on the processing

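Of 167 values of the 10 tested members under the alternatives, 134 kept their direction and their side of the thresholds, 5 no longer passed, 5 newly passed and 23 changed sign. All that changed sign belong to genes that were not called. With 1 gene higher as reported, the count of members higher was 2 with no filter, 2 with a mean FPKM of at least 0.1, 2 with DESeq2 and 2 with edgeR's exact test, and 0 with a mean FPKM of at least 2 (which leaves out LOC105388111), robust spread, limma on log2(FPKM + 1), the replicate number as a block, or an adjusted p under 0.05. Leaving out 1 library gave 0 to 4, and members lower were 0 throughout. The median over members was 0.19 as reported, 0.07 to 0.53 with a library left out, 0.86 with no filter, 0.049 with the block, 0.041 with a mean FPKM of at least 2 and 0.0014 with limma on either scale. For the 7 storage genes alone the median of 0.86 became 0.19 with a mean FPKM of at least 2 (4 genes), 0.34 with limma on log2(FPKM + 1) and 0.38 to 1.88 with a library left out.

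With limma on log2(FPKM + 0.1) and log2(FPKM + 1), LOC105388112 was at -0.23 in both, LOC105388114 at -0.25 in both, LOC105382270 at -0.038 and -0.037 and LOC105394573 at -0.0045 in both. With the block they were -0.12 for LOC105388112 and -0.16 for LOC105388114, and with a mean FPKM of at least 2 LOC105382270 was at -0.0014. The cause was not tested. With a library left out, the values ran from -0.49 to 0.72 for LOC105388112, -0.48 to 0.63 for LOC105388114, -0.16 to 0.052 for LOC105388113, -0.17 to 0.24 for LOC105385795, -0.070 to 0.12 for LOC105382270 and -0.011 to 0.10 for LOC105394573. Apart from LOC105388111, the block changed no call of a member. Leaving out a library leaves 2 in its group, and depth limits LOC105388121, LOC105392108 and LOC105385819, each with at most 8 counts in a library.
Over all genes, the 154 called as reported became 240 with no filter, 84 with a mean FPKM of at least 2 and 84 with limma on log2(FPKM + 1). They became 271 when DMNT replicate 2 was left out, 259 for control replicate 2 and 238 for control replicate 3.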
